A study of Mus musculus with 19 samples.

Results

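The core circadian clock genes are the transcription factors and inhibitors of the feedback loop that times daily gene expression, and they were measured here in the quadriceps muscle of a mouse model of spinal and bulbar muscular atrophy. Array probes were taken as members when the array's gene name was Arntl, Clock, Per1, Per2, Per3, Cry1, Cry2, Nr1d1, Nr1d2 or Dbp. These are 10 of the 30214 gene names on the array, read by 14 probes. After dim probes were left out, 9 of the 10 genes, with 13 probes, were among the 24737 gene names tested.

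The loop is driven by ARNTL (also called BMAL1) and CLOCK, which bind DNA as a pair and activate the Period, Cryptochrome, Rev-erb (Nr1d1, Nr1d2) and Dbp genes. Period and Cryptochrome proteins return to the nucleus and block the pair, and the Rev-erb receptors repress Arntl, so that Arntl transcripts and those of its targets peak at different times of day. Skeletal muscle holds such a clock in its own fibers, where it times genes of fuel use and of the contractile apparatus.

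The study looked into disease processes in muscle, using arrays for the pathways behind metabolic changes in quadriceps, and also fed mice a high-fat diet. Congenic C57Bl6J males were either wild type (CTR) or AR113Q, whose androgen receptor gene carries an expanded polyglutamine tract at its own locus in every cell, and from 40 to 180 days of age they ate either normal chow (NCD) or food high in fat (HFD). Quadriceps RNA was hybridised to Agilent arrays read in a single colour, 1 array per sample. On the normal diet there were 5 wild-type and 5 AR113Q arrays, on the high-fat diet 4 wild-type and 5 AR113Q arrays, all from mice aged 180 days. The labels give neither the time of day at which tissue was taken nor whether each sample was a single mouse, so that the p-values below measure spread between samples. Whether the groups differed in the time of day is not known. In genes with a daily rhythm such a difference could not be told apart from genotype or diet.

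Levels are log2 of the processed spot signal minus the log2 75th percentile of that array, so that 0 is the array's 75th percentile and 1 unit is a doubling. The percentile itself was 731.8 to 860.6 intensity units on CTR-NCD arrays, 802.7 to 1062 on AR113Q-NCD arrays, 728.2 to 929.6 on CTR-HFD arrays and 930.0 to 1158 on AR113Q-HFD arrays. It was thus higher on all AR113Q-HFD arrays than on any CTR-HFD array, and its part in the results was not tested. Of the probes on each array, 67.1% to 80.1% had 0.5 or more of their spots well above background by the scanner's flag. The muscle fiber markers Acta1, Ckm, Myh4, Tnnt3, Tnni2, Mb and Des were well above background on all 19 arrays. The arrays sat on 5 slides, each with several groups, and were scanned on 1 day.

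In AR113Q muscle the activator gene Arntl, the Rev-erb gene Nr1d1 and a probe upstream in Per1 were lower than in wild-type muscle, and no clock gene probe was higher past the test. On the normal diet 3 of the 13 clock probes passed limma's test at an adjusted p under 0.05, against 17.6% of all 32021 probes tested. On the high-fat diet 1 of 13 passed, against 17.9% of all probes, and with the genotypes compared over both diets 3 of 13 passed, against 29.3%. All of these calls were lower in AR113Q muscle, as were 9.28%, 9.93% and 16% of all probes, while 8.29%, 8% and 13.3% of all probes and none of the clock probes were higher. Against the calls in either direction, the shares of clock probes lie near or below the background, and nothing particular to the clock genes is read from them. The clock probes were split in direction, with 6 above 0 and 7 below in each of these comparisons. Their median log2 fold change was -0.01 on the normal diet, where that of all probes was -0.05, and -0.08 on the high-fat diet, where that of all probes was -0.07. The comparisons of genotype within a diet and of the diets within a genotype share arrays of the same group, and the averaged comparisons use all 19 arrays.

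Between the diets no clock probe passed the test. In AR113Q muscle limma called 0 of 13 clock probes between the diets, against 0.025% of all probes (0.00312% higher, 0.0219% lower), and in wild-type muscle 0 of 13, against 0% of all probes. Averaged over the genotypes it also called 0 of 13, against 0.025% (0.00312% higher, 0.0219% lower). At an unadjusted p under 0.05 the counts were 1, 6 and 9 of 13, where all probes gave 6.73%, 8.67% and 11.2%. The 13 probes read 9 genes, since Per1, Cry2, Nr1d2 and Dbp each have a pair. Several clock genes also varied together within groups, as given below. Counts over the 13 are therefore not counts of independent probes. For the interaction, the difference between the genotype effects on the 2 diets, limma called 0 of 13, against 0% of all probes, and 0 of 13 had an unadjusted p under 0.05, against 4.65%. Over both genotypes 11 of 13 clock probes lay above 0 on the high-fat diet, with a median of 0.17 where the median of all probes was 0.00, and the probes below 0 were those of Arntl and Nr1d1. This count was 9 of 13 with the normexp background correction, 10 of 13 with the replicate number as a block and 10 of 12 in the authors' value table. In the same comparison the endothelial markers Pecam1, Cdh5, Kdr and Tek lay below 0 in 4 of 4 (median -0.20). Limma called 0 of these 4, and 3 had an unadjusted p under 0.05, against 0.025% and 11.2% of all probes. Most markers of the other cell types also lay below 0 in this comparison. These were 4 of 4 macrophage, 3 of 3 red blood cell, 6 of 7 muscle fiber, 4 of 5 adipocyte, 3 of 4 fibroblast and 3 of 4 Schwann cell markers. The part of any of these cell types in the clock values was not tested.

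**Figure D1:**
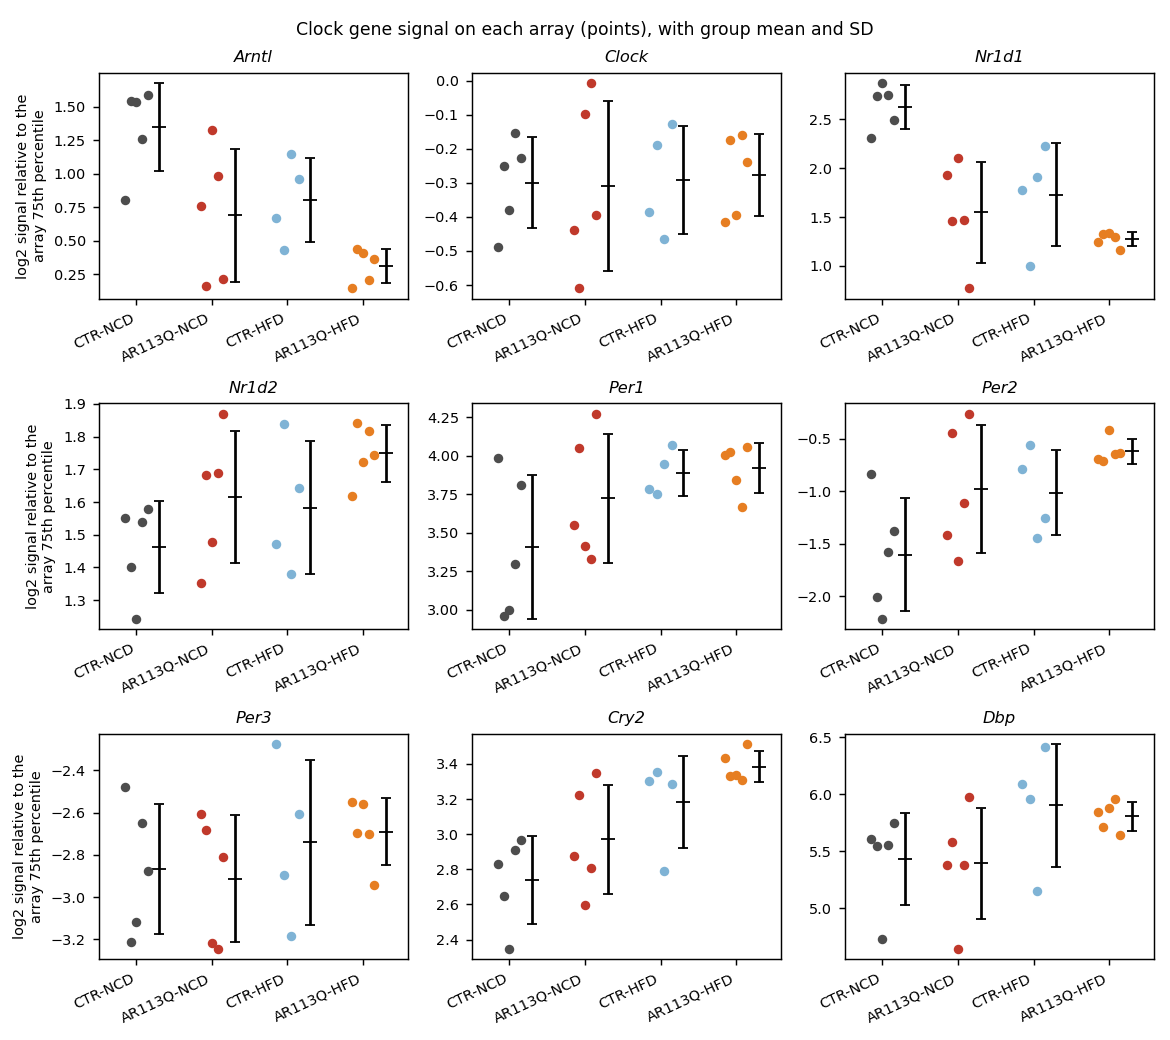
Levels of the 9 measured clock genes (vertical axis, log2 relative to the array's 75th percentile) in the 4 groups, 1 point per array, with the mean and SD. Nr1d1 lay at 2.31 or above on CTR-NCD arrays and at 2.11 or below on AR113Q-NCD arrays.

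Arntl encodes the DNA-binding partner of CLOCK, and its probe lies at chr7:120457261-120457320 (mm9, plus strand). The CTR-NCD arrays read 0.80, 1.54, 1.53, 1.26 and 1.58, and the AR113Q-NCD arrays 0.76, 0.16, 1.32, 0.98 and 0.22. All 5 AR113Q-NCD arrays lay below the CTR-NCD median and 3 lay below every CTR-NCD array, so that the groups overlapped through CTR-NCD replicates 1 and 4 and AR113Q-NCD replicates 3 and 4. The CTR-HFD arrays read 0.66, 0.43, 1.14 and 0.96, and the AR113Q-HFD arrays 0.14, 0.44, 0.40, 0.21 and 0.36. Of the 5 AR113Q-HFD arrays, 4 lay below every wild-type array. The group means followed the order CTR-NCD 1.34 ± 0.33 (SD, n = 5), CTR-HFD 0.80 ± 0.31 (n = 4), AR113Q-NCD 0.69 ± 0.50 (n = 5) and AR113Q-HFD 0.31 ± 0.13 (n = 5). The middle pair of this order lay closer together than either group's SD.

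Arntl was 1.58-fold lower in AR113Q muscle on the normal diet (log2 fold change -0.66, SE 0.21, limma adjusted p 0.0392). On the high-fat diet the log2 fold change was -0.49 (SE 0.22) with an adjusted p of 0.154, and the interaction of 0.17 (SE 0.31, adjusted p 1) showed no difference between these effects past the test. Over both diets Arntl was 1.49-fold lower, with a log2 fold change of -0.57 (SE 0.15) and a limma adjusted p of 0.00864, and each AR113Q array lay below the wild-type median of its diet. Within slides the difference on the normal diet was below 0 on 5 of 5 slides, at -0.05, -1.38, -0.21, -0.28 and -1.37, and on the high-fat diet on 3 of 4, from -0.74 to 0.00. With the slide as a block the values were -0.66 (adjusted p 0.0258) and -0.50 (adjusted p 0.0963). The normal-diet call was lost when any of CTR-NCD replicates 2, 3, 4 and 5 or AR113Q-NCD replicates 1, 2 and 5 was left out, with values from -0.68 to -0.53 and adjusted p from 0.0594 to 0.111. It was also lost with median centring (-0.60, adjusted p 0.13), the background correction by normexp (-0.47, 0.145), no filter on dim probes (0.0517) and array weights (-0.61, 0.0534), in a range of adjusted p from 0.0103 to 0.145 over 31 alternatives. The call over both diets was lost in 1 of 31, normexp (-0.46, adjusted p 0.0682). Between the diets over both genotypes Arntl had a log2 fold change of -0.46 (SE 0.15, unadjusted p 0.00803, limma adjusted p 0.309), which did not pass. It was -0.54 in wild-type muscle (adjusted p 0.526, 4 of 4 slides below 0) and -0.38 in AR113Q muscle (adjusted p 0.81, 3 of 5 slides below 0).

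Promoter windows from RefSeq, 250 bases before to 50 after a start site (GRCm38.p6), were available for 9 of the 10 genes, in 13 windows. They were searched on both strands for the E-box CACGTG bound by the ARNTL and CLOCK pair, the D-boxes TTATGTAA and TTACGTAA bound by DBP, and the core of the Rev-erb and ROR element, TAGGTCA or TGGGTCA. Of all 32851 such windows, 7.15% hold CACGTG, 0.938% TTATGTAA, 0.119% TTACGTAA, 2.61% TAGGTCA and 3.98% TGGGTCA. Among the clock genes 4 of 13 windows hold one of them, and a match is a description of the letters only. The windows of Arntl, Nr1d1, Per1 and Per3 are printed because the results below turn on these genes or, for Per3, because of its pair of matches, and matches are in capitals. The Cry1 window, at chr10:85185005-85185304 on the minus strand, holds an E-box from -60 to -55 and is not printed, since Cry1 could not be compared. A Rev-erb and ROR core lies 31 to 37 bases from the start in an Arntl window, at chr7:113207261-113207560 on the plus strand. A Per1 window, at chr11:69098699-69098998 on the plus strand, holds an E-box from -166 to -161. The Per3 window, at chr4:151044616-151044915 on the minus strand, holds the same D-box from -205 to -198 and from -158 to -151. The Nr1d1 window, at chr11:98775328-98775627 on the minus strand, holds none of these letters.
Arntl: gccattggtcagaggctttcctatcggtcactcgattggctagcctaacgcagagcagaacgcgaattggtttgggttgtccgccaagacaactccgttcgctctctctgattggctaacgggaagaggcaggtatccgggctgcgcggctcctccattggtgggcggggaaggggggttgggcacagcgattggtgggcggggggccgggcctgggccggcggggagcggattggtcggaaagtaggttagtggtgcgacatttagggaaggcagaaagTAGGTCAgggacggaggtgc
Per1: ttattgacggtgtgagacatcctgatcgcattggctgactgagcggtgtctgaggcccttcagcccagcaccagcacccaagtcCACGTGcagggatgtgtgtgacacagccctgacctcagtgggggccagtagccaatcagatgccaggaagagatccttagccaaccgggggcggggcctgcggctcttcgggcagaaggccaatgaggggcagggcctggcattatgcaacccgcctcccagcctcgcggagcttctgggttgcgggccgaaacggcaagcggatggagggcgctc
Per3: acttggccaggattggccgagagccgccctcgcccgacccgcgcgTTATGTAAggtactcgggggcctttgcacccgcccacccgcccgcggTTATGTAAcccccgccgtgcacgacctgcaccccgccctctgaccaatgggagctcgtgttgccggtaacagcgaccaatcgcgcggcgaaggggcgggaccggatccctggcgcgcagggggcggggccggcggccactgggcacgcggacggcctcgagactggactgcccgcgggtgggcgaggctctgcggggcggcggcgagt
Nr1d1: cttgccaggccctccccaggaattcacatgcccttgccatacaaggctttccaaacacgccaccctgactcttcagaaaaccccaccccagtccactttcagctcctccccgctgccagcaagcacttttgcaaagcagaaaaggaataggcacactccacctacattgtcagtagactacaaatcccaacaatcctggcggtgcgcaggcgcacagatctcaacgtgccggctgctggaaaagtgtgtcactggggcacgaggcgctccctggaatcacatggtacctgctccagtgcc

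Clock, which encodes the partner of ARNTL, stayed within narrow bounds. Its probe at chr5:76641377-76641436 (mm9, minus strand) read -0.61 to -0.01 over the 19 arrays. The group means were -0.30 ± 0.13 (SD, n = 5) in CTR-NCD, -0.31 ± 0.25 (n = 5) in AR113Q-NCD, -0.29 ± 0.16 (n = 4) in CTR-HFD and -0.28 ± 0.12 (n = 5) in AR113Q-HFD, which do not differ beyond their spread. The log2 fold change over both diets was 0.00 (SE 0.08, 95% interval -0.17 to 0.17).

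Nr1d1 encodes REV-ERB alpha, the receptor that represses Arntl and is itself activated through E-boxes. Its probe spans chr11:98630526-98631028 (mm9, minus strand). The CTR-NCD arrays read 2.31, 2.74, 2.87, 2.75 and 2.49, and the AR113Q-NCD arrays 1.93, 1.46, 2.11, 1.47 and 0.77. These groups did not overlap. The CTR-HFD arrays read 1.78, 0.996, 1.91 and 2.23, and the AR113Q-HFD arrays 1.25, 1.32, 1.34, 1.30 and 1.16. CTR-HFD replicate 2 alone lay below all AR113Q-HFD arrays, and the CTR-HFD arrays all lay below the CTR-NCD arrays. The means followed the order CTR-NCD 2.63 ± 0.23 (SD, n = 5), CTR-HFD 1.73 ± 0.52 (n = 4), AR113Q-NCD 1.55 ± 0.52 (n = 5) and AR113Q-HFD 1.27 ± 0.07 (n = 5), and the middle pair again lay closer than either SD.

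On the normal diet Nr1d1 was 2.12-fold lower in AR113Q muscle (log2 fold change -1.08, SE 0.23, limma adjusted p 0.00317, lower in 5 of 5 arrays). On the high-fat diet the log2 fold change was -0.46 (SE 0.24, adjusted p 0.234), and all 5 AR113Q-HFD arrays lay below the CTR-HFD median. The interaction was 0.63 (SE 0.33, unadjusted p 0.079, limma adjusted p 1), so that the diets were not shown to differ. Over both diets Nr1d1 was 1.70-fold lower, with a log2 fold change of -0.77 (SE 0.17) and an adjusted p of 0.00192. Leaving out CTR-HFD replicate 2 brought the high-fat-diet comparison past the threshold (-0.70, adjusted p 0.0463, in a range of 0.0463 to 0.674 over 31 alternatives). The normal-diet call was lost in 1 of 31 alternatives, normexp (-0.81, adjusted p 0.115, in a range of 0.00108 to 0.115). Within slides the normal-diet difference was -0.38, -1.27, -0.76, -1.28 and -1.72, and with the slide as a block it was -1.08 (adjusted p 0.00471). For the high-fat diet 3 of 4 slides were below 0, from -1.07 to 0.33, and the block value was -0.46 (adjusted p 0.197).

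Wild-type muscle on the high-fat diet had a log2 fold change in Nr1d1 of -0.90 against the normal diet (SE 0.24, unadjusted p 0.00183, limma adjusted p 0.338), with 4 of 4 arrays below all CTR-NCD arrays and 4 of 4 slides below 0. In AR113Q muscle the value was -0.27 (SE 0.23, adjusted p 0.939). Groups that do not overlap were found for 2 of the 13 tested clock probes between the genotypes on the normal diet, Nr1d1 and the upstream Per1 probe, where 15.6% of all probes were separate and 17.6% were called. They were found for 1 of 13, Nr1d1, between the diets in wild-type muscle, where 2.73% of all probes were separate and 0% were called. Between genotypes on the high-fat diet the groups overlapped at all 13 probes, where 15.7% of all probes were separate. They also overlapped at all 13 between diets in AR113Q muscle, where 2.04% were separate. Groups that differ in both genotype and diet were not compared.

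Nr1d2, which encodes the related receptor REV-ERB beta, moved little. Its brighter probe at chr14:19037253-19037312 (mm9, minus strand) read 1.24 to 1.87 over the 19 arrays, with group means of 1.46 ± 0.14 (SD, n = 5) in CTR-NCD, 1.62 ± 0.20 (n = 5) in AR113Q-NCD, 1.58 ± 0.20 (n = 4) in CTR-HFD and 1.75 ± 0.09 (n = 5) in AR113Q-HFD. The log2 fold change between genotypes over both diets was 0.16 (SE 0.08, limma adjusted p 0.134). It passed the threshold after quantile normalization (0.20, adjusted p 0.0386), in the authors' value table (0.22, 0.0277) and with normexp fitted without spots of outlier background (0.19, 0.0445). The other Nr1d2 probe gave -0.00 (SE 0.07).

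Per1, a Period gene that also responds to glucocorticoids and calcium signals, was read by a pair of probes that differed. The brighter probe, at chr11:68923364-68923423 (mm9, plus strand), read 3.98, 2.96, 2.997, 3.30 and 3.81 on CTR-NCD arrays and 3.55, 4.05, 3.41, 3.33 and 4.27 on AR113Q-NCD arrays. It read 3.78, 3.75, 3.94 and 4.07 on CTR-HFD arrays and 4.01, 4.03, 3.84, 3.67 and 4.06 on AR113Q-HFD arrays. The groups overlapped throughout, and the log2 fold change over both diets was 0.17 (SE 0.15, adjusted p 0.435). The second probe lies upstream at chr11:68919895-68919954 (mm9, plus strand), and the array's annotation ties it to a complementary DNA clone from embryonic head. It read -2.53, -2.97, -2.99, -2.51 and -2.92 on CTR-NCD arrays and -3.24, -3.52, -3.68, -3.09 and -3.82 on AR113Q-NCD arrays, with no overlap. On CTR-HFD arrays it read -2.56, -2.48, -3.05 and -2.86, and on AR113Q-HFD arrays -3.23, -3.60, -3.56, -2.97 and -3.90, where AR113Q-HFD replicate 4 alone overlapped the wild-type range.

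At the upstream probe Per1 was 1.61-fold lower in AR113Q muscle on the normal diet (log2 fold change -0.69, SE 0.18, limma adjusted p 0.0143, lower in 5 of 5 arrays) and 1.64-fold lower on the high-fat diet (-0.71, SE 0.19, adjusted p 0.0154, below the CTR-HFD median in 5 of 5). Over both diets the log2 fold change was -0.70 (SE 0.13, adjusted p 0.000637). The high-fat-diet call was lost without CTR-HFD replicate 1 (-0.65, adjusted p 0.0507) or CTR-HFD replicate 2 (-0.63, 0.057), and the calls on each diet were lost with normexp (-1.05, adjusted p 0.145, and -0.35, adjusted p 1). Over 30 alternatives the adjusted p ranged from 0.000185 to 0.145 on the normal diet and from 9.23e-05 to 1 on the high-fat diet. Within slides the difference was below 0 on 5 of 5 slides (-0.89 to -0.55) and on 4 of 4 (-1.12 to -0.51), and the slide block gave -0.69 (adjusted p 0.000185) and -0.81 (adjusted p 9.23e-05). Averaging the pair of probes gave Per1 a value over both diets of -0.26 (adjusted p 0.0391), of opposite sign to the brighter probe, so that no direction is given for Per1 as a gene.

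Per2, the Period gene whose transcript is lowest when Arntl is high, is read at chr1:93313046-93313105 (mm9, minus strand). It read -0.84, -2.005, -2.22, -1.58 and -1.38 on CTR-NCD arrays and -1.42, -0.44, -1.67, -1.11 and -0.26 on AR113Q-NCD arrays. On CTR-HFD arrays it read -0.79, -0.56, -1.45 and -1.25, and on AR113Q-HFD arrays -0.70, -0.72, -0.42, -0.64 and -0.63. The first 3 groups spread widely and overlapped, while the AR113Q-HFD arrays stood close together near the top. The means were -1.60 ± 0.54 (SD, n = 5), -0.98 ± 0.61 (n = 5), -1.01 ± 0.41 (n = 4) and -0.62 ± 0.12 (n = 5) in CTR-NCD, then AR113Q-NCD, then CTR-HFD and last AR113Q-HFD. The log2 fold change between genotypes was 0.62 (SE 0.28, adjusted p 0.15) on the normal diet and 0.51 (SE 0.20, limma adjusted p 0.073) over both diets. The latter passed the threshold without CTR-NCD replicate 1 (0.60, adjusted p 0.0265) or AR113Q-NCD replicate 3 (0.59, 0.0338), in a range of 0.0265 to 0.373 over 31 alternatives.

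Per3, a Period gene less needed for the rhythm itself, was read at chr4:150379256-150379315 (mm9, minus strand), with levels from -3.24 to -2.27 over the 19 arrays. Its group means lay from -2.91 (AR113Q-NCD, SD 0.30, n = 5) to -2.69 (AR113Q-HFD, SD 0.16, n = 5), with no neighbours apart beyond their spread. The log2 fold change between genotypes over both diets was 0.00 (SE 0.13, 95% interval -0.28 to 0.28).

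Cry1, the Cryptochrome that most strongly blocks the activator pair, was not well above background on any of the 19 arrays at its probe, chr10:84594731-84594790 (mm9, minus strand), so that no comparison was made. Its signal limits what these arrays can say of this gene and does not show its absence. Cry2, the other Cryptochrome, is read at chr2:92243807-92243866 (mm9, minus strand). The CTR-NCD arrays read 2.83, 2.65, 2.35, 2.91 and 2.97, and the AR113Q-NCD arrays 2.88, 3.22, 2.60, 2.81 and 3.35. The CTR-HFD arrays read 3.30, 3.36, 2.79 and 3.28, and the AR113Q-HFD arrays 3.43, 3.33, 3.34, 3.31 and 3.51. Except for CTR-HFD replicate 3, the high-fat-diet arrays lay above all CTR-NCD arrays. The means were ordered CTR-NCD 2.74 ± 0.25 (SD, n = 5), AR113Q-NCD 2.97 ± 0.31 (n = 5), CTR-HFD 3.18 ± 0.26 (n = 4) and AR113Q-HFD 3.39 ± 0.09 (n = 5), and each step was smaller than the larger SD of its groups.

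For Cry2 the log2 fold change between diets over both genotypes was 0.43 (SE 0.11, unadjusted p 0.00112, limma adjusted p 0.232), which did not pass the threshold. Within slides the diet difference was above 0 on 4 of 4 slides in wild-type muscle (0.32 to 0.71) and on 5 of 5 in AR113Q muscle (0.11 to 0.74). It passed with the replicate number as a block (0.46, adjusted p 0.0393, in a range of 0.0393 to 0.885 over 31 alternatives). Between genotypes over both diets the value was 0.22 (SE 0.11, adjusted p 0.156), and it passed after quantile normalization (0.29, adjusted p 0.0327), in the authors' table (0.27, 0.0442) and with the slide as a block (0.22, 0.0373). The other Cry2 probe, at chr2:92251417-92251476, gave -0.07 (SE 0.10) between genotypes and 0.28 (SE 0.10, adjusted p 0.342) between diets.

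Dbp, a D-box activator that carries the rhythm of the loop to output genes, had its brighter probe at chr7:52965461-52965520 (mm9, plus strand). The CTR-NCD arrays read 5.60, 5.54, 4.73, 5.55 and 5.75, and the AR113Q-NCD arrays 5.38, 5.58, 4.64, 5.38 and 5.98. The CTR-HFD arrays read 6.09, 5.95, 5.15 and 6.42, and the AR113Q-HFD arrays 5.85, 5.71, 5.88, 5.96 and 5.64. Replicate 3 was the lowest array of each group except AR113Q-HFD. The log2 fold change between diets over both genotypes was 0.44 (SE 0.18, unadjusted p 0.027, limma adjusted p 0.389), and within slides it was above 0 on 4 of 4 in wild-type and 4 of 5 in AR113Q muscle. Between genotypes the value was -0.07 (SE 0.18). The second Dbp probe, at chr7:52965322-52965381, gave 0.36 (SE 0.15, adjusted p 0.385) and -0.11 (SE 0.15).

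**Figure D2:**
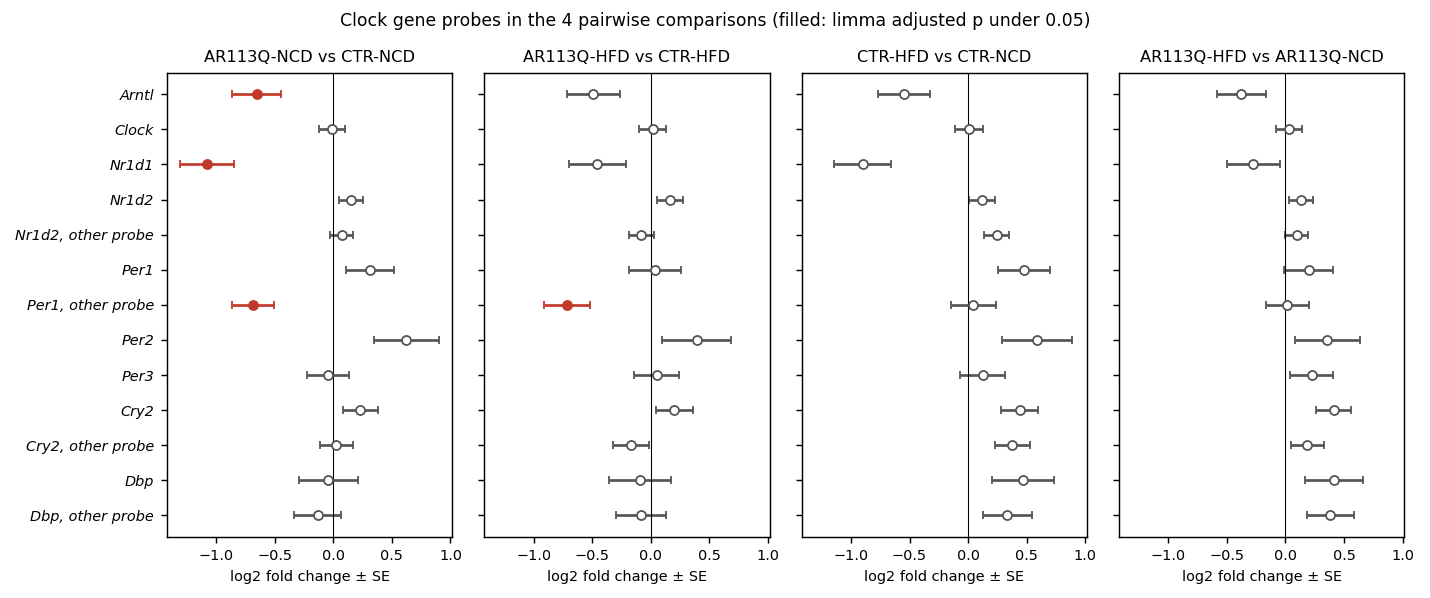
Log2 fold changes (horizontal axis) with their SE of the 13 tested clock probes in the 4 comparisons of groups, with filled points for an adjusted p under 0.05. The filled points are Arntl (-0.66), Nr1d1 (-1.08) and the upstream Per1 probe (-0.69 and -0.71), all between genotypes.

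Arrays of the same group differed more in some clock genes than in others. The residual SD of the fit was 0.46 for Per2, larger than for 74.3% of all probes, 0.41 for Dbp (69.8%), 0.38 for Nr1d1 (66.7%) and 0.34 for both Arntl (63.6%) and the brighter Per1 probe (63.2%). It was 0.17 for Clock (37.3%) and 0.16 for Nr1d2 (34%), where the median of all probes was 0.24. The AR113Q-HFD arrays had the smallest SD of the 4 groups at 10 of the 13 clock probes, with a median SD of 0.12 (n = 5), where this group had the smallest SD at 26.4% of all probes. The median SD of the clock probes was 0.29 in CTR-NCD (n = 5), 0.31 in AR113Q-NCD (n = 5) and 0.28 in CTR-HFD (n = 4), and the median SD over all probes was 0.21 in AR113Q-HFD and 0.20 to 0.24 in the other groups.

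**Figure D3:**
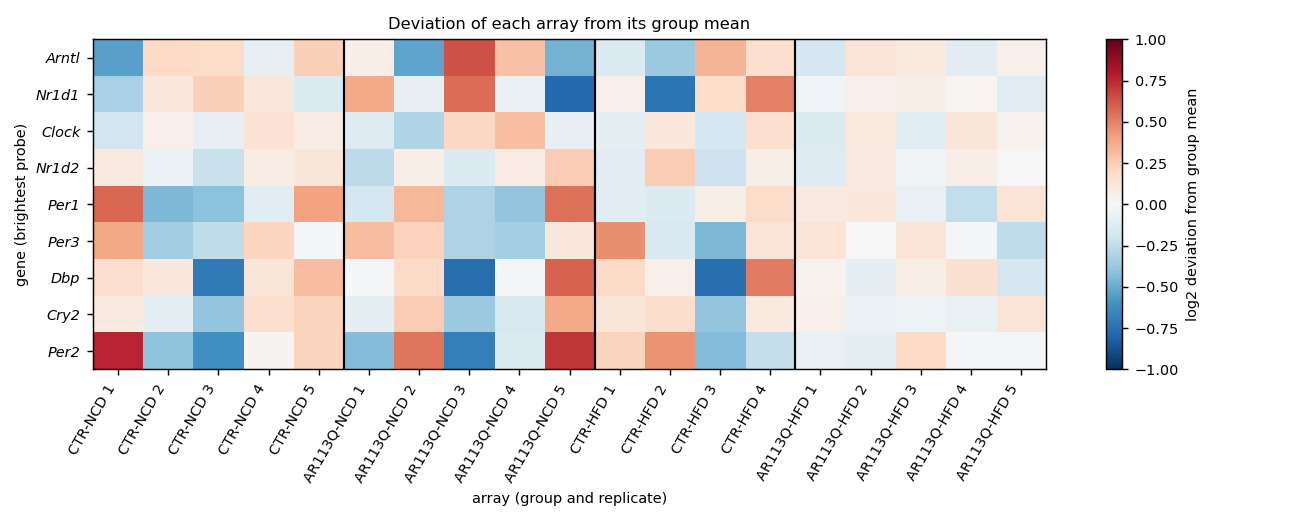
Deviation of each array from its group's mean (colour, log2 units, -1 to 1) for the 9 measured clock genes (rows) on the 19 arrays (columns). AR113Q-NCD replicate 5 was low in Arntl and Nr1d1 and high in Per2, Per1 and Cry2, and AR113Q-NCD replicate 3 ran the opposite way.

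Some clock genes followed Arntl within groups at an unadjusted p under 0.05. After each group's mean was removed, Per2 ran against Arntl over the 19 arrays (r -0.85, permutation p 0.00078; rho -0.78, p 0.00363). Nr1d1 ran with Arntl (r 0.71, permutation p 0.00987; rho 0.61, p 0.0301) and Cry2 against it (r -0.73, p 0.00925; rho -0.65, p 0.0211). Per3 (r -0.62, permutation p 0.0212; rho -0.70, p 0.0087) and Dbp (r -0.59, p 0.0351; rho -0.52, p 0.057) also ran against it, while Per1 (r -0.56, p 0.056), Clock (r 0.52, p 0.0955) and Nr1d2 (r -0.52, p 0.0767) did not pass. The permutations were two-sided, within groups, with 100000 resamples. They took no account of the slides, although arrays of different groups deviated alike when on the same slide. Over all probes the median correlation of deviations was 0.27 in 27 such pairs and -0.09 in 108 pairs on different slides. Adjusted over the 31906 probes compared with Arntl, the p of each clock gene was 1 and 0 probes passed, but the smallest p these resamples allow is 1e-05, at which no single probe could pass over so many. There were 1128 (3.54%) at an unadjusted p under 0.05. The relation of Per2 was larger in size than all but 0.00627% of those probes, that of Cry2 than all but 0.103% and that of Nr1d1 than all but 0.157%. In all, 9 relations to Arntl were computed among the clock genes, including that of Cry1, whose signal was not above background. Adjusted over these 9 alone, the permutation p was 0.00702 for Per2, 0.0296 for Cry2 and for Nr1d1 and 0.0477 for Per3. It was 0.0632 for Dbp, 0.084 for Per1, 0.0986 for Nr1d2, 0.107 for Clock and 0.176 for Cry1.

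Without the 2 arrays whose Arntl level lay farthest from its median (CTR-NCD replicates 5 and 2), which deviate little from their group, r was -0.90 for Per2, -0.84 for Cry2, 0.76 for Nr1d1, -0.61 for Per3 and -0.72 for Dbp. Without the 2 arrays deviating most from their group in Arntl (AR113Q-NCD replicate 3 and CTR-NCD replicate 1), a choice made after seeing the data, Per2 (r -0.75, permutation p 0.0268) and Cry2 (-0.69, p 0.0211) still passed. Nr1d1 (0.59, permutation p 0.117), Per3 (-0.46, p 0.162) and Dbp (-0.42, p 0.16) did not, so that their p under 0.05 rests on those arrays. With slide means removed as well, r was -0.84, -0.76, 0.70, -0.52 and -0.46 for these genes. The relations of Per1 (-0.64, permutation p 0.0183), Clock (0.72, p 0.00382) and Nr1d2 (-0.64, p 0.00678) then passed too, unadjusted. The permutations here were also within groups only and did not keep arrays to their slides. With the means of each replicate number removed in place of slide means, 3 of the 9 relations became stronger and 1 weaker. Per1 also passed without CTR-NCD replicate 5, CTR-HFD replicate 2, 3 or 4 or AR113Q-HFD replicate 4 (r -0.68 to -0.60, p 0.0212 to 0.047). Clock did so without CTR-HFD replicate 2 or 3 (r 0.62 and 0.67, p 0.0484 and 0.0294), and Nr1d2 without CTR-NCD replicate 5 or AR113Q-NCD replicate 1 (r -0.58 and -0.56, p 0.0489 and 0.0482). Scaling changed several relations, since median centring gave r -0.25 for Cry2, -0.29 for Dbp and 0.02 for Nr1d2, and normexp gave -0.26 for Per3. For Per2 and Nr1d1 the sign held in 29 of 29 alternatives, with r from -0.92 to -0.58 and from 0.59 to 0.88. The second Cry2 probe had r -0.18. The p of Dbp exceeded 0.05 without AR113Q-NCD replicate 1, 3, 4 or 5 or CTR-HFD replicate 3 (r -0.61 to -0.43, permutation p 0.0504 to 0.144), and that of Per3 without CTR-NCD replicate 1 or CTR-HFD replicate 3 (r -0.57 to -0.54, p 0.0514 to 0.0705).

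**Figure D4:**
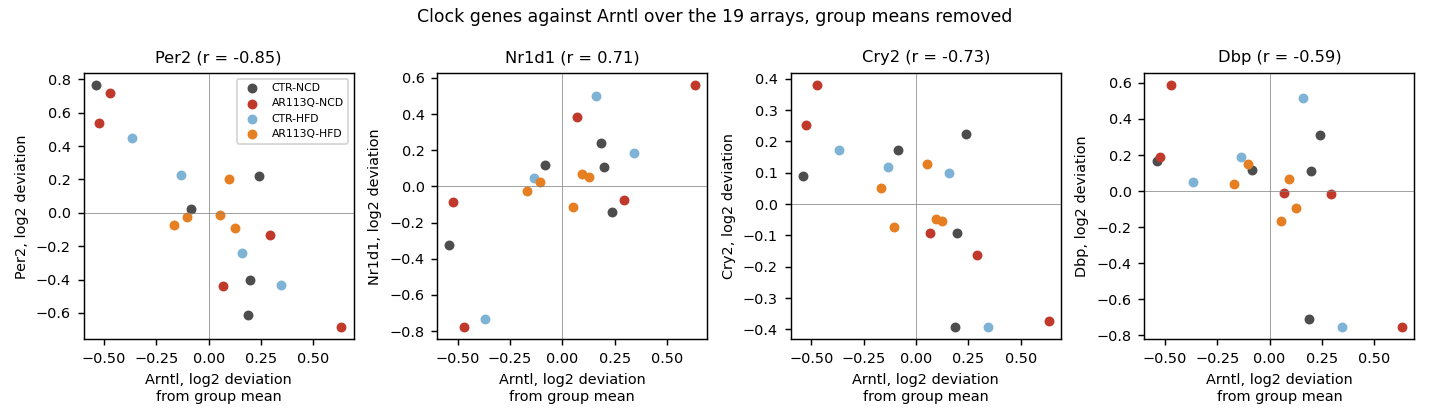
Deviations from the group mean (log2) of Per2, Nr1d1, Cry2 and Dbp (vertical axes) against that of Arntl (horizontal axis), 1 point per array. Per2 falls from upper left to lower right (r -0.85) and Nr1d1 climbs (r 0.71).

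Among the genes whose pattern over the arrays was most like that of Arntl, after group means were removed, were Adamts4 (r 0.84), the sodium channel gene Scn2a (0.84), Vwa3a (0.77), the collagen genes Col5a3 (0.77), Col3a1 (0.76) and Col15a1 (0.76), Wwtr1 (0.75), Nrarp (0.75) and Galnt18 (0.74). Those most opposed were the folate enzyme gene Mthfd1l (r -0.92), the mitotic kinase gene Wee1 (-0.85), a transcript of TBC1 domain family member 1 (-0.83), Gm10638 (-0.83), Epm2aip1 (-0.82), Sh2b3 (-0.78), Pms1 (-0.77), Pdxk (-0.77), Tmem241 (-0.77) and Zcchc14 (-0.77). None passed adjustment over all probes (lowest adjusted p 0.638), which the number of resamples hardly allowed, so that this does not show the relations to be absent. All 4 fibroblast markers were positive (r 0.22 to 0.76, median 0.54), and so were all 5 adipocyte markers (median 0.22), while the 7 muscle fiber markers had a median of 0.04. The 7 glucocorticoid-responsive genes were all negative (median -0.36), and the medians were 0.12 over 4 endothelial, 0.21 over 4 macrophage, 0.37 over 3 red blood cell and -0.07 over 4 Schwann cell markers, -0.19 over 19 clock partners, -0.25 over 8 clock outputs and -0.05 over 10 immediate early genes.

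The summed level of the 4 fibroblast markers, most of it from Dcn and in units of the array's 75th percentile, was 157, 210, 205, 143 and 130 on CTR-NCD arrays and 147, 124, 149, 192 and 141 on AR113Q-NCD arrays. It was 168, 163, 170 and 157 on CTR-HFD arrays and 148, 151, 161, 152 and 157 on AR113Q-HFD arrays. All 4 markers were well above background on 19 of 19 arrays, the genotypes overlapped on each diet, and the part of these cells in the Arntl pattern was not tested.

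Most partners of the loop lay below 0 in the genotype comparisons. Of 20 genes listed, 19 were tested, and Fbxl21, an F-box gene, was not. Limma called 3 of 19 on the normal diet, 3 on the high-fat diet and 9 over both diets (8 lower, 1 higher), against 17.6%, 17.9% and 29.3% of all probes. The median log2 fold changes were -0.25, -0.24 and -0.23, where all probes had -0.05, -0.07 and -0.06. These counts were 1, 0 and 3 with median centring, the same with normexp, and 6, 7 and 12 with the slide as a block. Over both diets 17 of 19 partners lay below 0, and 16 of 19 did after quantile normalization, median centring or either normexp correction, and 12 of 14 in the authors' table, but with normexp on the normal diet 9 lay above 0 and 10 below. Within slides the median was below 0 on 5 of 5 slides on the normal diet (-0.33 to -0.09) and on 4 of 4 on the high-fat diet (-0.35 to -0.08), and with the slide as a block it was -0.25 and -0.26. Between diets limma called 0 of 19 in any comparison, with 2 at an unadjusted p under 0.05 in each genotype and 4 over both, where 0% to 0.025% of all probes were called and 6.73% (AR113Q), 8.67% (wild type) and 11.2% (both) had such a p.

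Among the activators of Arntl, the receptor gene Rora was lower on the normal diet (log2 fold change -0.63, SE 0.17, limma adjusted p 0.0141), with 5 of 5 AR113Q arrays below all wild-type arrays. On the high-fat diet Rora was lower as well (-0.61, SE 0.18, adjusted p 0.0255, below the wild-type median in 5 of 5). The other Rora probe, dimmer, gave -0.15 (adjusted p 0.716) and -0.09 (adjusted p 0.843). Bhlhe40 and Bhlhe41 encode repressors that compete for E-boxes. Bhlhe40 was lower on the normal diet (-0.64, SE 0.15, adjusted p 0.00669) and the high-fat diet (-0.50, SE 0.16, adjusted p 0.0379), with 5 of 5 AR113Q arrays below all wild-type arrays on each. Bhlhe41 was 1.91-fold lower on the normal diet (-0.93, SE 0.11, adjusted p 2.41e-05, 5 of 5 arrays), and its value on the high-fat diet was -0.35, with an interaction of 0.59 that did not pass the test. The other Bhlhe41 probe was lower on both diets (-0.64, adjusted p 0.000871, and -0.42, adjusted p 0.0244). Median centring lost both Rora calls (-0.58, adjusted p 0.0948, and -0.54, 0.145) and both Bhlhe40 calls (-0.58, 0.0561, and -0.43, 0.191). The high-fat-diet call of Rora was lost without any of CTR-HFD replicates 1, 2 and 4 and AR113Q-HFD replicates 1 and 5 (-0.61 to -0.49, adjusted p 0.0546 to 0.0961). The Bhlhe40 call there was lost without any of CTR-HFD replicates 2 and 4 and AR113Q-HFD replicates 1, 3 and 5 (-0.49 to -0.37, adjusted p 0.0787 to 0.14).

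Kinases and ubiquitin ligases that set the stability of clock proteins were also in the list. Gsk3b was lower on the high-fat diet (-0.39, SE 0.10, limma adjusted p 0.0141, 5 of 5 arrays below all wild-type arrays), a call lost without CTR-HFD replicate 4 (-0.32, adjusted p 0.0577), and over both diets (-0.31, adjusted p 0.00319). Over both diets the ligase subunit genes Btrc (-0.25, adjusted p 0.0393) and Fbxw11 (-0.19, 0.016), the kinase gene Csnk1e (-0.20, 0.0264) and Arntl2 (-0.17, 0.0357), a relative of Arntl, were lower, in at least 4 of 5 AR113Q arrays of each diet against the wild-type median. These are values of the brightest probes, and the other probes of these 4 genes lay below 0 without passing (-0.30 to -0.11). Csnk1d was higher at its brightest probe (0.19, adjusted p 0.0368) and lower at its other probe (-0.42), so that no direction is given for it. Single arrays lost several of these calls. Csnk1e lost it without CTR-HFD replicate 1 or 4 or AR113Q-HFD replicate 5 (-0.18 to -0.16, adjusted p 0.0508 to 0.062), and Arntl2 without CTR-NCD replicate 2, 3 or 4, AR113Q-NCD replicate 2 or 5, CTR-HFD replicate 1 or 2 or AR113Q-HFD replicate 2 or 5 (-0.17 to -0.14, 0.0516 to 0.0737). Btrc lost it without CTR-NCD replicate 4 or 5, AR113Q-NCD replicate 1, 2 or 3, CTR-HFD replicate 1, 2 or 4 or AR113Q-HFD replicate 1, 3 or 5 (-0.26 to -0.20, 0.0517 to 0.0914). Csnk1d kept it only without CTR-NCD replicate 4 or 5, AR113Q-NCD replicate 3 or 4, CTR-HFD replicate 4 or AR113Q-HFD replicate 3, and otherwise read 0.16 to 0.19 (0.0517 to 0.0772).

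**Figure D5:**
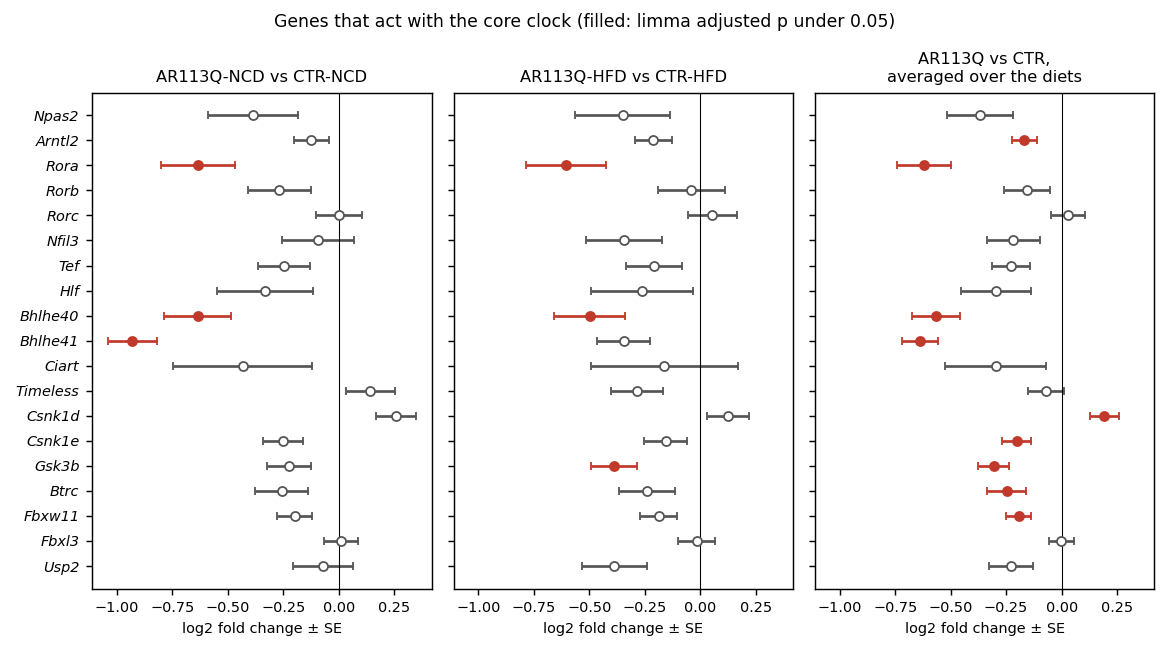
Log2 fold changes of AR113Q against CTR (horizontal axis) with their SE for the 19 tested partner genes on the normal diet, the high-fat diet and over both. Of these, 17 lie below 0 over both diets, and 16 after quantile normalization or median centring.

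Of 8 clock output genes limma called 2 in each genotype comparison, against 17.6%, 17.9% and 29.3% of all probes, a share near that background. The brightest probe of Cdkn1a, the cell cycle inhibitor gene, was 1.92-fold higher in AR113Q muscle on the normal diet (log2 fold change 0.94, SE 0.22, adjusted p 0.00608) and 2.15-fold higher on the high-fat diet (1.11, SE 0.23, adjusted p 0.00281), above the wild-type median in 5 of 5 arrays on each. These values are from its brightest probe, while its other probes, far dimmer, gave 0.75 and -0.25 on the normal diet and -0.28 and -0.30 on the high-fat diet, none past the test, so that no direction is given for Cdkn1a as a gene. Tcap, a sarcomere gene with a daily rhythm, was lower on each diet (-0.28, adjusted p 0.0266, and -0.42, adjusted p 0.0027, 5 of 5 arrays), but its sign turned on the normal diet after quantile normalization (0.09), normexp (0.02) and in the authors' table (0.05). Its normal-diet call was also lost without CTR-NCD replicate 1 or 5 or AR113Q-NCD replicate 3 or 5 (-0.26 to -0.24, adjusted p 0.068 to 0.0755). The outputs had median log2 fold changes of -0.02 on the normal diet and -0.14 over both diets, which were 0.11 and 0.02 after quantile normalization.

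Because Per1 responds to hormones and activity, glucocorticoid-responsive and immediate early genes were read beside it. Limma called 2 of 7 glucocorticoid-responsive genes on the normal diet and 4 of 7 on the high-fat diet, all lower. Of all probes 17.6% and 17.9% were called in either direction, and 9.28% and 9.93% were called lower. Sgk1 was 2.48-fold (log2 fold change -1.31, adjusted p 0.000322) and 2.79-fold lower (-1.48, adjusted p 0.000186), with 5 of 5 arrays below all wild-type arrays on each. The others were Zbtb16 on both diets (-0.45, adjusted p 0.00957, and -0.39, 0.031), and Tsc22d3 (-0.66, 0.00965) and Klf9 (-0.28, 0.0277) on the high-fat diet, each below the wild-type median in 5 of 5 arrays. Of the calls on the high-fat diet, that of Klf9 was lost without CTR-HFD replicate 2 or 4 or AR113Q-HFD replicate 1 or 3 (adjusted p 0.0597 to 0.0864), and that of Zbtb16 without CTR-HFD replicate 2 or 3 or AR113Q-HFD replicate 1, 3 or 4 (0.0603 to 0.108). Median centring left Sgk1 as the only call among these 4 genes on either diet. The list had a median of -0.10 on the normal diet and -0.19 over both diets, with 2 of 7 and 3 of 7 genes above 0. These medians were -0.06 and -0.11 after quantile normalization and 0.20 and -0.05 with normexp. On the high-fat diet the median was -0.28, with 3 of 7 genes above 0. Of the genes not called, Ddit4 averaged 2.98 (SD 0.91) on CTR-HFD and 3.79 (SD 0.49) on AR113Q-HFD arrays. Fkbp5 averaged 1.23 on CTR-NCD, 1.56 on AR113Q-NCD, 1.60 on CTR-HFD and 1.78 on AR113Q-HFD arrays.

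Of 10 immediate early genes limma called 3 on the normal diet and 1 on the high-fat diet, against 17.6% and 17.9% of all probes, counts near that background. Fos (log2 fold change 1.27, SE 0.37, adjusted p 0.0242) and Btg2 (0.82, SE 0.25, adjusted p 0.0307) were higher on the normal diet in 5 of 5 arrays against the wild-type median, and were -0.06 and 0.02 on the high-fat diet. The nuclear receptor gene Nr4a1 was lower on each diet (-0.66, adjusted p 0.0335, and -0.80, 0.0167, 5 of 5 arrays). The Fos call was lost without CTR-NCD replicate 2 or 4 or AR113Q-NCD replicate 2 or 3 (0.998 to 1.19, adjusted p 0.0552 to 0.0714), and the Btg2 call without any of these or CTR-NCD replicate 5 (0.71 to 0.75, adjusted p 0.0708 to 0.0856). The Nr4a1 call was lost without CTR-NCD replicate 1, 4 or 5 or AR113Q-NCD replicate 1, 3 or 4 (-0.68 to -0.57, adjusted p 0.0565 to 0.0874), and on the high-fat diet without CTR-HFD replicate 2 (-0.73, adjusted p 0.0543). All 10 genes (8 with normexp) lay below 0 between the diets over both genotypes, with a median of -0.30, and limma called 0 of them, with 4 at an unadjusted p under 0.05, where 0.025% of all probes were called and 11.2% had such a p.

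Markers of muscle fibers moved with the genotype. Limma called 5 of 7 lower on the normal diet, where 9.28% of all probes were called lower, from Ckm (log2 fold change -0.70, SE 0.07, adjusted p 9.04e-06, 5 of 5 arrays) to Tnni2 (-0.29, adjusted p 0.0293), and on the high-fat diet 5 lower and Des higher (0.32, adjusted p 0.034). The Tnnt3 call on the normal diet (-0.29) was lost on leaving out any array but CTR-NCD replicate 4, AR113Q-NCD replicate 4, CTR-HFD replicates 2, 3 and 4 and AR113Q-HFD replicates 3 and 5 (-0.30 to -0.26, adjusted p 0.0535 to 0.11), while its other probe gave -0.36 (adjusted p 0.00439). The Tnni2 call was lost without CTR-NCD replicate 1 or 5 or AR113Q-NCD replicate 2, 3 or 5 (-0.29 to -0.26, adjusted p 0.0536 to 0.0775), and the Des call without CTR-HFD replicate 2, 3 or 4 or AR113Q-HFD replicate 1, 2, 3 or 5 (0.29 to 0.34, 0.0518 to 0.0994). Their summed level, in units of the array's 75th percentile, was 3300, 3020, 3010, 2710 and 3190 on CTR-NCD arrays and 2560, 2470, 2360, 2680 and 2230 on AR113Q-NCD arrays. It was 2790, 3300, 3470 and 2830 on CTR-HFD arrays and 2120, 2380, 2050, 2250 and 2470 on AR113Q-HFD arrays, so that the genotypes did not overlap. The probe of Tnni2 was the brightest of them, which does not rank the genes by abundance. The list's median of -0.29 on the normal diet became 0.06 after quantile normalization and 0.03 in the authors' table, while Ckm stayed below 0 in each. On that diet Myh4 and Tnnt3 turned above 0 after quantile normalization, Myh4 and Tnni2 in the authors' table and Tnni2 with normexp. Mb, which was not called, averaged 7.68 on CTR-NCD and 7.99 on AR113Q-NCD arrays, and 7.54 on CTR-HFD and 7.37 on AR113Q-HFD arrays. Within slides the median was below 0 on each slide of both genotype comparisons, and with the slide as a block it was -0.29 and -0.45. The part of fiber content in the clock results was not tested, and fewer cells of a type and less RNA per cell cannot be told apart in whole muscle. Among the other cell type markers, each read at its brightest probe, limma called only S100b, a Schwann cell gene. It was higher on the normal diet (0.58, adjusted p 0.00521, 5 of 5 arrays) and over both diets. Of 5 adipocyte, 4 endothelial, 4 fibroblast, 4 macrophage and 3 red blood cell markers, 0 were called. On the normal diet 0 of these had an unadjusted p under 0.05. On the high-fat diet 1 adipocyte and 1 endothelial marker did, as did 1 of each over both diets. Of all probes 28.5%, 29% and 38.5% had such a p in these comparisons, and 17.6%, 17.9% and 29.3% were called. The other probe of Kdr, an endothelial marker, averaged 1.24 (SD 0.39) on CTR-HFD arrays and 0.56 (SD 0.35) on AR113Q-HFD arrays. On the normal diet it averaged 1.31 on CTR-NCD and 1.19 on AR113Q-NCD arrays.

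Of the genotype calls over all probes, 47.2% were higher on the normal diet, 44.6% on the high-fat diet and 45.4% over both. These shares were 56.0%, 61.0% and 56.8% with median centring, 53.7%, 56.7% and 54.9% after quantile normalization, 53.9%, 57.0% and 55.0% in the authors' table and 28.5%, 19.9% and 20.5% with normexp fitted without spots of outlier background. The balance of higher and lower calls among all probes therefore depends on the scaling, while Arntl, Nr1d1 and the upstream Per1 probe lay below 0 between genotypes in all alternatives tried. The normexp correction as planned moved the median of all probes to -0.55 on the normal diet and -0.31 over both diets, and the Arntl and Nr1d1 values of -0.47 and -0.81 on the normal diet under it stand beside that shift.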

How the data were processed

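Quadriceps RNA labelled with Cy3 was read on Agilent arrays, and per the file headers and the submitters' processing notes the authors made spot values with Feature Extraction 10.7.3.1. The processed signal used here is an intensity, corrected for background by the authors' software and not scaled between arrays, and the mean signal and local background of the deposited scanner files are intensity values too. The deposited value table is on a log2 scale by its values, with column medians of 7.63, 7.62, 7.62, 7.64 and 7.61 (CTR-NCD), 7.63, 7.63, 7.62, 7.63 and 7.62 (AR113Q-NCD), 7.65, 7.62, 7.64 and 7.59 (CTR-HFD) and 7.63, 7.61, 7.62, 7.62 and 7.62 (AR113Q-HFD). The authors' exact normalization of that table was not found in the sources read, so that its centring is taken as unknown. Its scale follows log2 (slope 0.88 to 0.96 on the scanner values), and its direction is that of the signal. It holds 25944 of the 39429 probes and served as an alternative.

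Control spots and 85 to 167 outlier spots per array were removed, the rest were averaged by probe on the log2 scale, and each array's 75th percentile was subtracted. Probes entered the test if 4 or more arrays had 0.5 or more of their spots well above background (32021 probes). Limma 3.58.1 in R 4.3.3 fitted the 4 group means over 19 arrays, with Benjamini-Hochberg adjustment over all probes tested and a threshold of 0.05. A gene is read by its brightest tested probe, with the others beside it for the clock genes and for some of the listed genes. The number of arrays limits the precision. Correlations and permutations used numpy 2.4.6, pandas 2.3.3 and scipy 1.17.1 in Python 3.11.15, with data.table version 1.17.8 for tables and matplotlib 3.10.9 for figures. The steps were tested on simulated data.

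Members and lists were chosen with earlier results of these data known. Named genes are all members with every probe, listed genes that passed the test in the comparison discussed, and genes among the 10 with the highest and the 10 with the lowest r with Arntl, not all of which are reported. Probe names are those of the array design, and the accessions of 11 of the 14 clock probes are found in the reference. Alternatives were median centring, quantile normalization, background correction by normexp, the deposited table, no filter and a stricter filter, slide and replicate number as blocks, array weights, a trended robust variance, a fold rule, the mean of a gene's probes and each array left out. Normexp fitted without spots of outlier background, and correlations without the 2 arrays of largest Arntl deviation, were chosen after seeing the data.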

Additional observations from a re-analysis of the deposited data

Results flagged for a closer look

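In 5 of the 52 sets of arrays looked at (13 clock probes in 4 groups), 1 array stood far from the others of its group, measured as its gap to the nearest array over the group's whole range. Chance alone gives about 1 in 20 such sets. Dbp on CTR-NCD replicate 3 was 4.73, below the next array at 5.54 (ratio 0.802), and its second probe on the same array was 4.81, below 5.41 (ratio 0.723). Cry2 on CTR-HFD replicate 3 was 2.79, below 3.28 (ratio 0.873). Per2 on AR113Q-HFD replicate 3 was -0.42, above -0.63 (ratio 0.724), and the second Nr1d2 probe on AR113Q-NCD replicate 2 was 0.77, above 0.50 (ratio 0.758). The causes were not tested.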

How the results depend on the processing

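Where clock probes were called, the counts were kept within 1.5 times the values reported in 84 of 93 recomputations. By this rule a fall from 3 calls to 2 counts as kept, so that the loss of the Arntl call alone does not show in it. Most of these recomputations left out a single array. Counts of 0 were kept in 123 of 124, which says little where almost no probe of the array was called. For the genotypes over both diets, limma called 5 clock probes after quantile normalization and 5 in the authors' value table, with Cry2 and Nr1d2 beside the 3, and 1 with normexp. With normexp it called 0 on the normal diet and 0 on the high-fat diet. On the normal diet the median of all probes under it was -0.55, and -0.14 once spots of outlier background were left out. Asking also for a fold of at least 1.5 or at most 0.6 left 1 on the normal diet, 0 on the high-fat diet and 1 over both, since Arntl and the upstream Per1 probe changed by less. With the replicate number as a block, limma called 1 probe between the diets, Cry2. Leaving out single arrays gave 2 to 3 calls on the normal diet, 0 to 1 on the high-fat diet (0 without CTR-HFD replicate 1) and 3 to 4 over both.

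Samples of equal replicate number share only that number in the labels, and pairing was checked. Over 27 pairs of equal number in different groups, deviations from the group mean correlated at a median of 0.24 (-0.21 to 0.54), against -0.09 in 108 pairs of unequal number, and replicate numbers follow slides except for CTR-HFD replicate 4. With the replicate block the log2 fold changes on the normal diet were -0.66 for Arntl (adjusted p 0.0269), -1.08 for Nr1d1 (0.00237) and -0.69 for the upstream Per1 probe (0.00118).

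Fold changes of clock probes kept their side of the threshold, and their direction where they had one, in 2747 of 2786 recomputations, with 18 weaker, 10 stronger, 7 moved and 4 turned in sign. Most of the values reported had not been called, and a value that stayed uncalled counts as kept. Of the 2786, 1729 left out a single array (1717 kept), so that the total says little about how firm the calls are. The sign changed in 175 recomputations, which was not counted as turned where the value reported lay within 1 SE of 0. With normexp, Per3 turned between the diets in AR113Q muscle (-0.0045) and over both genotypes (-0.36). With the mean of its probes, Per1 turned on the normal diet (-0.19) and over both diets (-0.26), since the pair of probes has opposite signs.

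Of 1643 recomputed fold changes of called listed genes, 1417 were kept, 210 became weaker and 16 turned, all between genotypes. Of the 1643, 1045 left out a single array (945 kept), so that the total says little about scaling. Median centring kept 25 of 55 and left 30 weaker. With normexp 13 of 55 were kept, 39 became weaker and 3 turned. Quantile normalization kept 33 of 55, with 16 weaker and 6 turned. In the authors' values 33 of 52 were kept, 12 became weaker and 7 turned. Normexp without outlier background kept 45 of 51, and the other alternatives kept 51 or more of 55. The values that turned after quantile normalization were Tcap (0.0875 on the normal diet, 0.038 over both), Myh4 (0.0678, 0.0314) and Tnnt3 (0.0664, 0.017). In the authors' table they were Tcap (0.0485, 0.0058), Myh4 (0.0252, 0.0001) and Tnni2 (0.0662 on the normal diet, 0.0422 on the high-fat diet, 0.0542 over both). With normexp they were Tcap (0.0179) and Tnni2 (0.0157) on the normal diet and Egr2 over both (-0.0367). The cause was not tested. With normexp fitted without outlier background, chosen after seeing the data, Myh4 and Tnnt3 could not be fitted in part. Of 255 recomputed correlations with Arntl, 20 became weaker, 20 stronger and 1 turned in sign (Nr1d2 with median centring, r 0.02), which had not passed. Signal over background limits Cry1, which could not be compared. Per3 and the upstream Per1 probe are dim beside the others, though well above background on 19 of 19 arrays.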
